A study of Danio rerio with 25 samples.

Results

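Transcript levels in zebrafish embryos given the lowest citalopram concentration, 0.03 µg/L, were compared with those in untreated embryos. Citalopram is a selective serotonin reuptake inhibitor: it blocks the transporter that carries serotonin back into cells, and so prolongs serotonin signalling. In vertebrate embryos serotonin is also known as a developmental signal that acts before synapses are mature, and the zebrafish has duplicate genes for several parts of this system.

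Wild-type (WT) embryos were kept in 0.3× Danieau solution, and the treated group had citalopram hydrobromide in it until 24 hpf (hours post-fertilization). The start of exposure is 0 hpf in the sample labels and about 2 hpf in the study's methods. Treated embryos were then washed and kept without drug until harvest at 48 hpf, and the controls had no drug. Each library was made from total RNA of 50 pooled whole embryos with ribosomal RNA removed. The comparison took 10 of the 25 libraries of the study, 5 biological replicates per group. The members were all transcripts listed for this comparison, 31882 of the 32963 listed at any of the 4 concentrations. Of these, 31512 had a mean above 0 in both groups, 322 had a mean of 0 in control and 48 had a mean of 0 with citalopram.

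No table used here paired the Ensembl transcript IDs with gene symbols (0 of 32963). Serotonin genes, other gene lists and markers of embryonic tissues could therefore not be examined, and transcripts are described by level, direction and library. Transcripts of 1 gene share reads that the authors' quantification divides between them, so a transcript at 0 does not mean that its gene was at 0. In RNA of whole embryos, fewer cells of a type and less RNA per cell cannot be told apart.

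The deposited values are group means of normalized counts, where a library's counts are divided by its size factor. They are written with 15 significant digits, which is enough to find the size factors and the whole counts of each library behind a mean. Control counts were obtained for all 31882 transcripts. For 12843 of them this took the tables of the other concentrations, without a check that no other set of counts fits. Of the 18076 transcripts with a mean below 250 normalized counts in both groups, counts of every library were obtained for 17978, here called the resolved transcripts. They were 56.4% of those listed, and held 5.26% of the summed citalopram means and 5.23% of the summed control means. The libraries are lettered by rising size factor, citalopram a (0.836), b (1.01), c (1.06), d (1.12) and e (1.24), and control f (0.784), g (0.916), h (0.943), i (0.960) and j (1.34). Which replicate number a letter stands for is not known. The 5 control libraries held between 23031920 and 36705100 counts over the listed transcripts, with reads for 30309 to 30802 of them. Over the resolved transcripts alone the citalopram libraries held between 1354717 and 1850020 counts and the control libraries between 1181619 and 1994097.

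Citalopram libraries a and d stood apart from the other 8. Across the 17978 resolved transcripts, Pearson's r of log2(normalized count + 1) was 0.77 between a and d. It was 0.27 to 0.49 for a or d with any of the other 8 libraries, over 16 pairs. The 28 pairs among these 8 had r between 0.63 and 0.80, and citalopram libraries b, c and e correlated as closely with the controls (median r of 0.70, 0.73 and 0.69) as the controls did with each other (0.68 to 0.72). The first principal component held 40.4% of the variance between the 10 libraries. Libraries a and d scored 0.59 and 0.62 on it, and the other 8 scored between -0.30 and -0.01. Low correlations between libraries of 1 group also occurred at the other concentrations, over the transcripts resolved there: 0.48 to 0.69 at 0.9 µg/L, 0.46 to 0.65 at 50 µg/L and 0.34 to 0.63 at 250 µg/L. These sets differ in level, so the ranges are not like measures. Of citalopram means from 170 to 250 normalized counts, 450 of 2899 were resolved at 250 µg/L and 2754 of 2898 at 0.03 µg/L. These correlations are across transcripts, which are not independent replicates.

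**Figure D1:**
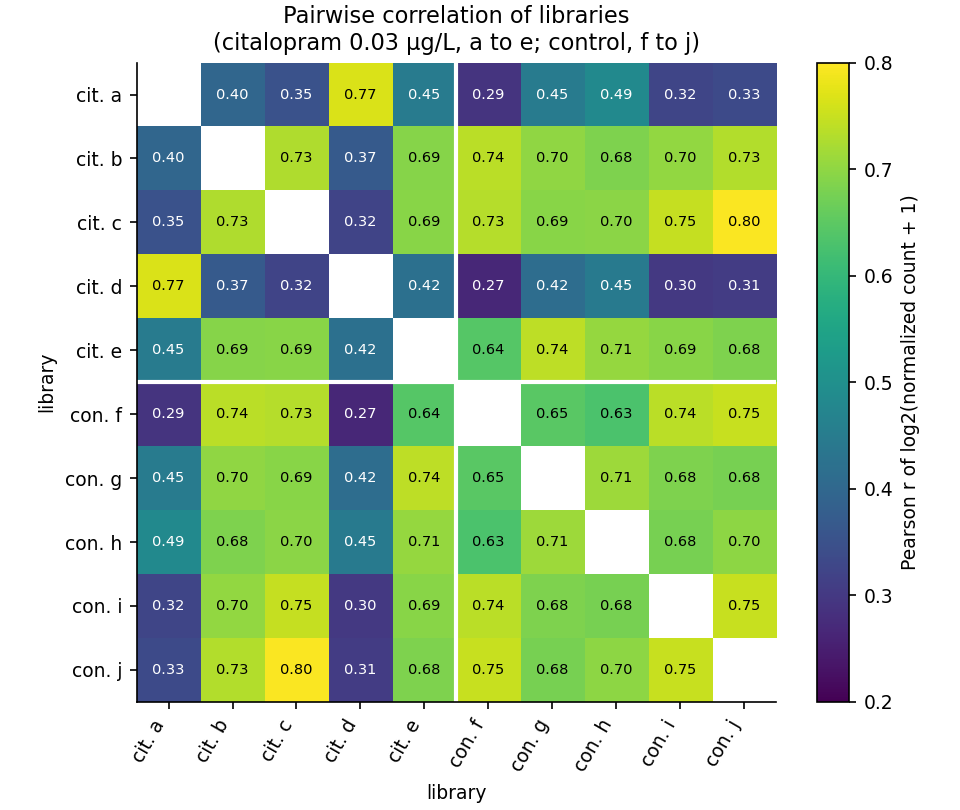
Pearson's r of log2(normalized count + 1) between each pair of libraries over 17978 resolved transcripts, citalopram 0.03 µg/L (a to e) and control (f to j), on a colour scale from 0.2 to 0.8. Libraries a and d correlate with each other (0.77) but at 0.27 to 0.49 with the other 8, which correlate at 0.63 to 0.80.

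The same 2 libraries held the most transcripts far from the rest. In library d 2784 resolved transcripts were over 2 times the median of the other 9 libraries, and in a 2575, against 787 to 887 in citalopram b, c and e and 806 to 1118 in the controls (1 normalized count was added to each value). Under 1/2 of that median were 2648 transcripts in a and 2731 in d, against 1031 to 1271 in b, c and e and 1130 to 1673 in the controls. The 5 citalopram libraries averaged 1584 ± 1004 (SD, n = 5) transcripts over 2 times the median and the controls 902 ± 126 (SD, n = 5), a difference that an exact two-sided permutation test did not separate (p = 0.294, adjusted over 4 such per-library values p = 0.310). The transcripts were in part shared. In a and d together 771 were at over 2 times the highest of the other 8 libraries and 529 at under 1/2 of the lowest, and over the other 44 pairs of libraries these counts reached at most 36 and 53.

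**Figure D2:**
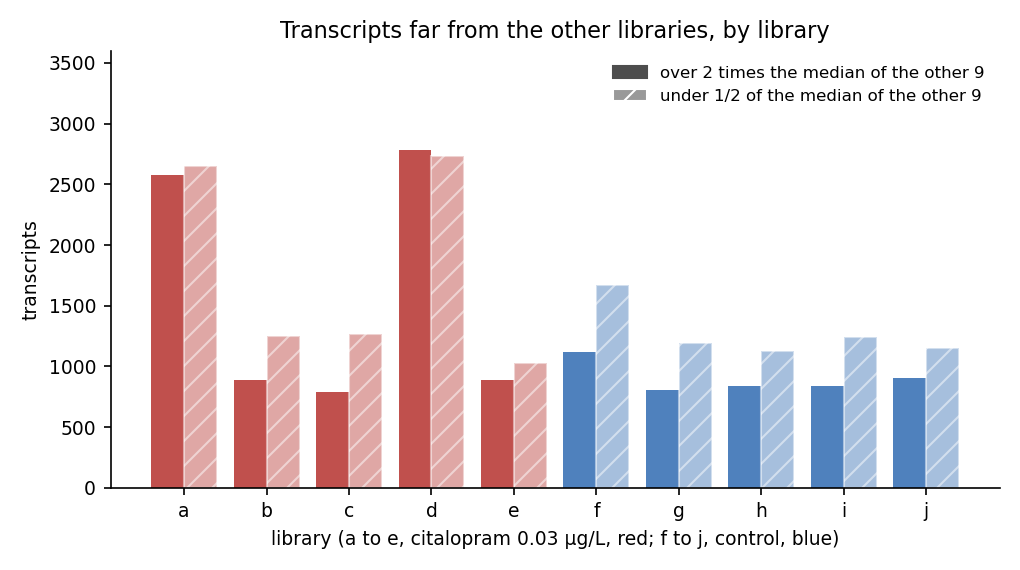
Number of resolved transcripts over 2 times (solid bars) and under 1/2 (hatched bars) of the median of the other 9 libraries, for each citalopram 0.03 µg/L library (red) and control library (blue). Libraries a and d have 2575 to 2784 in either direction, and the other 8 have 787 to 1673.

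Among the 31512 transcripts present in both groups, the typical citalopram mean was close to the control mean. The median log2 ratio (citalopram over control) was 0.01, and its quartiles were -0.21 and 0.26. Past the study's fold of 0.6 on the log2 scale were 3258 higher transcripts (10.3%) and 1649 lower transcripts (5.23%). At an absolute log2 ratio above 1 there were 1548 higher and 450 lower. These counts of group means carry no test.

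The ratio of higher to lower counts past the fold was largest among abundant transcripts, but the difference between their shares of transcripts was not. Between 30 and 100 normalized counts 13.6% were higher and 7.67% lower, and above 3000 4.58% and 0.518%. Between 10 and 30 normalized counts, 698 transcripts were higher past the fold and 543 lower, of 3218. Between 100 and 300 they were 779 and 295 of 8273, and above 3000 they were 53 and 6 of 1158. The median log2 ratio stayed between -0.01 and 0.02 in every bin from 10 normalized counts upward, so the surplus lay in the upper tail: above 3000 normalized counts the 95th percentile was 0.57 and the 5th was -0.38. In the own tables of the other concentrations, which share these control libraries, 4.58% higher at this level stood beside 0.092% at 0.9 µg/L, 0.617% at 50 µg/L and 0.366% at 250 µg/L. Over all levels, 2.09% of transcripts were higher and 2.22% lower past the fold at 0.9 µg/L, 2.65% and 2.72% at 50 µg/L, and 3.41% and 2.38% at 250 µg/L.

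**Figure D3:**
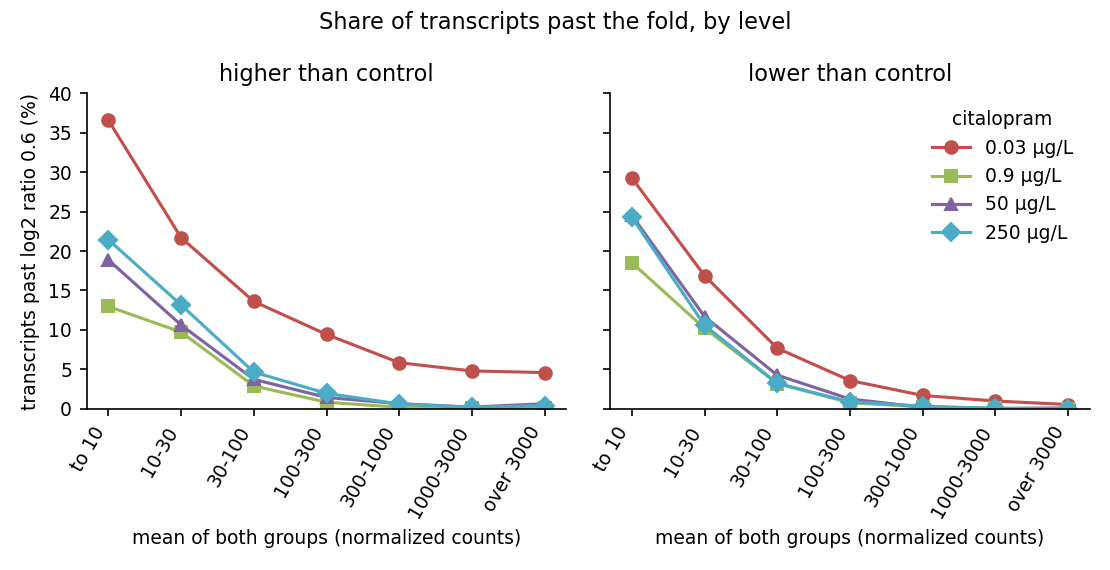
Percent of transcripts with a log2 ratio of group means above 0.6 (left) or below -0.6 (right) by the mean level of both groups in normalized counts, for each citalopram concentration against the same controls. At 0.03 µg/L 4.58% of transcripts above 3000 normalized counts are higher past the fold and 0.518% lower.

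The control counts of single libraries gave a first measure of replicate spread for every transcript. The citalopram mean lay above the highest of the 5 control libraries for 6233 transcripts (19.8%) and below the lowest for 3965 (12.6%). At 0.9, 50 and 250 µg/L the values were 3.36%, 7.29% and 6.09% above and 2.50%, 6.09% and 4.62% below. These covered only transcripts also listed at 0.03 µg/L. They were 30565 of 31121, 30543 of 31033 and 30724 of 31336 with both means above 0. Of the 3258 higher transcripts at 0.03 µg/L, 2556 were also above every control library, and of the 1649 lower ones 814 were below every control library. A single control library, set against the mean of the other 4, was itself past the fold for many transcripts, with 1681 to 3072 higher and 2320 to 3324 lower. These were counted over the 30272 to 30705 transcripts with reads on both sides. A single library varies more than a mean of 5, so these counts are not a like measure for those between the groups.

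The 4 transcripts named here had the 2 largest and 2 smallest ratios among those with at least 100 normalized counts in both groups. ENSDART00000141407.3 had a citalopram mean of 8217 normalized counts, and its single citalopram libraries could not be resolved. Its control libraries were at 277 (f), 548 (g), 350 (h), 193 (i) and 384 (j), with a mean of 350.3, so the citalopram mean was 23.5-fold higher (log2 ratio 4.55) and above every control. In the other tables this transcript had citalopram means of 1051 at 0.9 µg/L, 720 at 50 µg/L and 1735 at 250 µg/L, all above the same control libraries' means of 341.5 to 349.

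ENSDART00000183735.1 had a citalopram mean of 2247 normalized counts, and its single citalopram libraries could not be resolved. In control it was at 582 in g and 466 in h and at 0 in f, i and j, with a mean of 210 (log2 ratio 3.42). Left without control g, its log2 ratio was 4.27, and without f, i or j 3.10. The control libraries thus differed from each other in whether they held it at all. Its citalopram means were 343 at 0.9 µg/L, 418 at 50 µg/L and 233 at 250 µg/L.

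The citalopram reads of ENSDART00000159067.2 all came from 1 library. This transcript had 687 counts in c, which are 648 normalized counts, and 0 in a, b, d and e, with a citalopram mean of 130. The controls were at 517 (f), 0 (g), 0 (h), 2307 (i) and 720 (j), with a mean of 709 (log2 ratio -2.45), and the groups overlapped. Left without control i, its log2 ratio was -1.26. It was not lower at the other concentrations, with citalopram means of 775, 947 and 872 at 0.9, 50 and 250 µg/L.

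ENSDART00000192589.1 had a citalopram mean of 235 normalized counts, and its single citalopram libraries could not be resolved. The controls were at 1245 (f), 371 (g), 331 (h), 1802 (i) and 1225 (j), with a mean of 995 (log2 ratio -2.08), all above the citalopram mean. Its citalopram means were 795, 689 and 566 at 0.9, 50 and 250 µg/L.

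Over the 17978 resolved transcripts, 1 was called higher and 0 lower by limma at an adjusted p of at most 0.05, in 5 against 5 libraries (0.00556% and 0%). At an unadjusted limma p under 0.05 there were 654 higher (3.64%) and 581 lower (3.23%). The called transcript was at 84.9, 62.4, 30.2, 98.3 and 49.8 normalized counts in citalopram a to e and at 0 in all 5 controls, with an adjusted limma p of 0.0134. Every citalopram library held it and no control library did. Against a floor of 3 counts over the control group its citalopram mean of 65.1 was at least 108.5-fold higher. With no control reads, this transcript could be listed only by its citalopram reads, and its control values had no spread. It was thus chosen through the group where it is high, and its call and fold carry that limit. It was no longer called when citalopram a, b, d or e was left out (adjusted limma p of 0.124 to 0.258), and was still called without c or any 1 control (0.0143 to 0.0357). Without a and d together limma called 3 transcripts higher and 1 lower, and this transcript was among them with an adjusted limma p of 3.2e-04. The other 2 called higher were also at 0 in all 5 controls, at 21.5 to 40.2 and at 8.84 to 37.5 normalized counts over the 5 citalopram libraries. The same limit holds for these 2. The one called lower was at 40.3 to 90.7 in the controls, at 0 in citalopram b, c and e, and at 43.0 in a and 46.5 in d (adjusted limma p of 0.637 with all 10 libraries).

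Every citalopram library was above every control library for 64 resolved transcripts (0.356%) and below every control library for 83 (0.462%). With 5 libraries per group some transcripts separate like this by chance alone. The number expected by chance was not computed, and these counts carry no test. No excess over chance is therefore read from them, here or at the other concentrations. The corresponding counts were 21 and 26 of 18263 at 0.9 µg/L, 31 and 64 of 17712 at 50 µg/L, and 20 and 24 of 15755 at 250 µg/L.

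Most resolved transcripts past the fold at 0.03 µg/L had libraries a and d outside the control range. Past the fold in the resolved set were 2247 higher (12.7%) and 1399 lower (7.93%) of 17650 with reads in both groups. Of the higher ones, 1782 (79.3%) had both a and d above every control library, and in 849 (37.8%) these were the only 2 that were. Any other combination of exactly 2 citalopram libraries accounted for at most 35. All 5 citalopram libraries were above every control library in 42. Of the lower ones, a and d were both below every control in 866 (61.9%) and were the only 2 in 255 (18.2%), against at most 15 for any other combination of 2. Libraries a and d enter the group mean that chose these transcripts, so part of these shares comes from that choice. The corresponding shares over all 17650 are not given here.

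Without a and d the counts past the fold were 899 higher (5.14%) and 922 lower (5.28%) of 17474. Among resolved transcripts the surplus of higher over lower ones was thus present with these libraries and not without them. Over the whole table, where most citalopram means above 250 normalized counts could not be resolved, leaving out a and d was not possible. Without a alone there were 1791 higher and 945 lower, and without d alone 1703 and 971. Leaving out citalopram b, c or e gave more transcripts past the fold in both directions, up to 2750 higher and 2206 lower without c. Leaving out any 1 control gave 2188 to 2472 higher and 1275 to 1671 lower. What sets a and d apart was not tested. Their size factors of 0.836 and 1.12 lay within the range of the other libraries. They had the fewest transcripts without reads, 854 and 793, against 910 to 1358 in the other 8. These counts depend on which transcripts were listed. The 200 resolved transcripts with reads in a and d alone add to the count of each of the other 8. The 96 with 0 counts in a and d alone add to the counts of a and d. Their normalized counts over the resolved transcripts summed to 1619835 and 1653938, against 1459841 to 1507180 in the other 8.

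**Figure D4:**
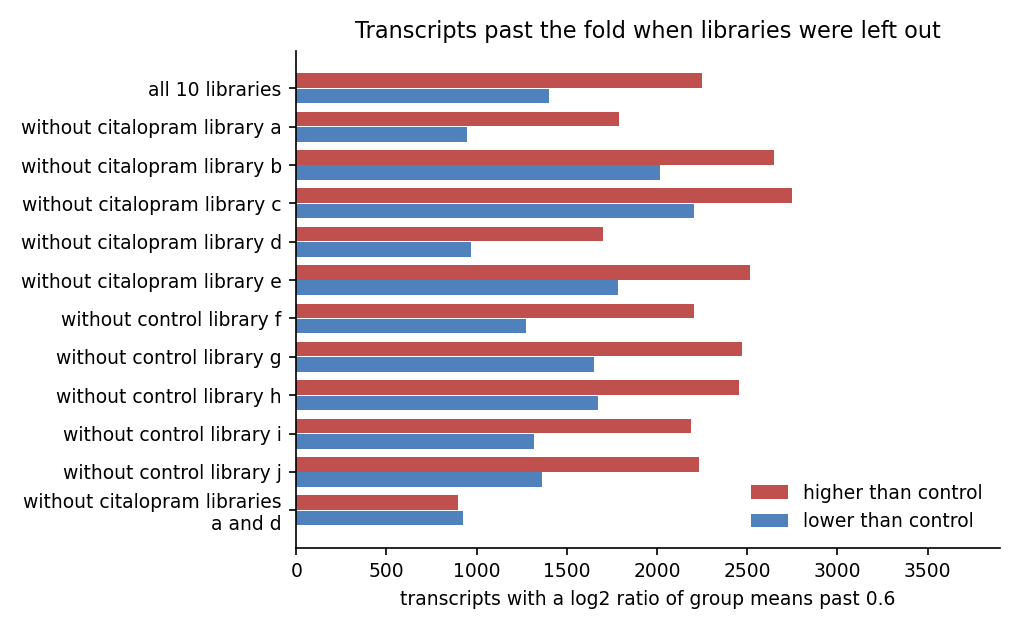
Number of resolved transcripts with a log2 ratio of group means above 0.6 (red) or below -0.6 (blue), with all 10 libraries and with the libraries named on the axis left out. With all libraries 2247 are higher and 1399 lower, and without citalopram a and d 899 are higher and 922 lower.

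The 322 transcripts with a mean of 0 in control had citalopram means between 13.4 and 8313 normalized counts, with a median of 51.9. A count of 0 in all 5 controls allows a control mean of up to 0.6 normalized counts (3 counts over the group, counting error only). The median citalopram mean was at least 2 to the power 6.43 times this floor. These transcripts could be listed only by their citalopram reads, and the lowest of them already lay 2 to the power 4.48 above the floor. Such bounds depend on which transcripts were listed and are not read as a size of change. In 101 of them the mean was 100 normalized counts or more and in 8 it was 1000 or more. At the other concentrations 27, 43 and 84 transcripts had a mean of 0 in control at 0.9, 50 and 250 µg/L.

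These transcripts came largely from libraries a and d. Counts of single libraries could be obtained for 311 of the 322. Of these, 230 had reads in a and d and in no other of the 10 libraries, 31 in a, d and e, 13 in a, b and d, and 3 in all 5 citalopram libraries. At means of 250 or more, reads were sought only as sets of 2 libraries and found for 30 of 39, so wider combinations could not appear there. Among the 281 resolved transcripts at 0 in control, 200 had reads in a and d alone. The 230 held 85.2% of the summed means of the 322, though only 0.173% of the summed citalopram means of all transcripts. The rule for listing is not stated, but no resolved transcript had reads in fewer than 2 of the 10 libraries. Among resolved transcripts 200 had reads in a and d alone, and any other pair of the 10 libraries had at most 6. At the other concentrations the most frequent pair of treated libraries had 3, 5 and 30 such transcripts at 0.9, 50 and 250 µg/L.

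**Figure D5:**
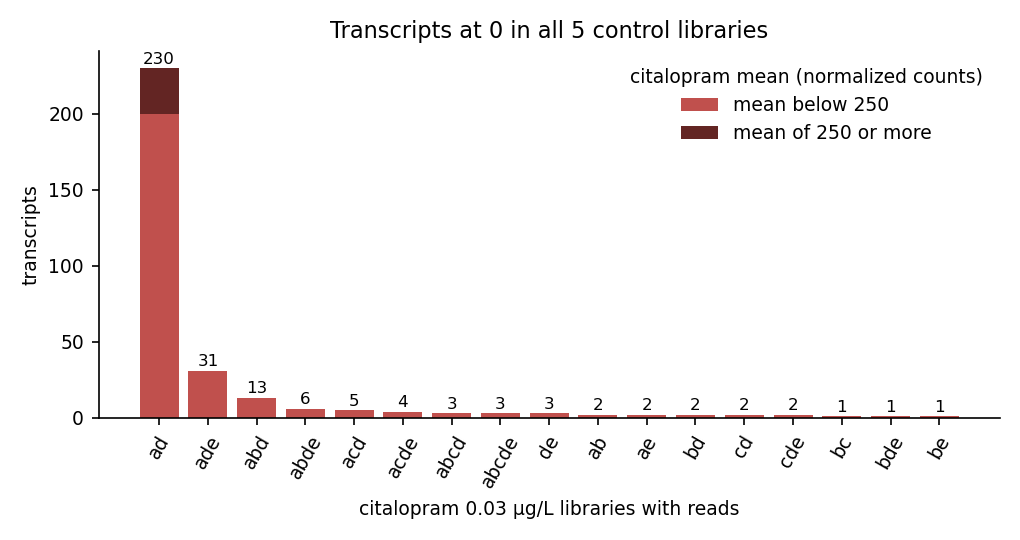
Number of transcripts at 0 in all 5 control libraries by the citalopram 0.03 µg/L libraries in which they had reads, for the 311 with known library counts. Light bars are means below 250 normalized counts and dark bars 250 or more, where only combinations of 2 libraries were sought. The combination of a and d alone holds 230, and the next, a, d and e, holds 31.

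The most abundant had 11485 counts in a and 31133 in d, which are 13733 and 27833 normalized counts, and 0 in b, c, e and all controls. Its citalopram mean of 8313 was at least 13855-fold above the control floor, but 3 of the 5 citalopram libraries were at 0 like the controls. The next had 13877 counts in a and 25040 in d, and the third 4534 and 7530, with 0 elsewhere. Over the 230, library a held 91605 counts and library d 161372. The median log2 ratio of a over d in normalized counts was -0.20, with quartiles of -0.54 and 0.22. At 0.9 µg/L 228 of the 230 were not listed, at 50 µg/L 224 and at 250 µg/L 202, and the highest citalopram means among those that were listed were 44.7, 45.8 and 513 normalized counts.

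The converse pattern was also present. Resolved transcripts with 0 counts in a and d and reads in all other 8 libraries numbered 96, and for no other pair were there more than 33. Among transcripts with citalopram means of 250 to 10000 normalized counts that had reads in both groups, 15 had citalopram reads from exactly 2 libraries, and these were a and d in 12.

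The 48 transcripts with a mean of 0 with citalopram had control means between 13.3 and 327 normalized counts, with a median of 32.5. The floor of 0.6 puts their median at 2 to the power 5.76 or more above the citalopram level. They could be listed only by their control reads, so this bound is not read as a size of change either. None had reads in all 5 controls. The most abundant was at 366 in g, 872 in i and 398 in j and at 0 in f and h, so it too was absent from some controls. No pair of control libraries stood out, with at most 6 transcripts for any combination. All 48 were listed at the other concentrations, where 38, 41 and 39 had a citalopram mean above 0 at 0.9, 50 and 250 µg/L. Each had reads in 2 to 4 of the control libraries, which are shared by all concentrations. Being listed there can thus follow from the control reads alone, unlike for transcripts at 0 in control. Without a and d, 81 resolved transcripts were at 0 in every control instead of 281, and 223 instead of 47 were at 0 in every remaining citalopram library.

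The group sums differed little. The citalopram means summed to 29297114 normalized counts and the control means to 28333677, a log2 ratio of 0.05. The most abundant transcript held 7.37% of the citalopram sum and 9.36% of the control sum, and the 10 most abundant held 21.9% and 22.9%. At the other concentrations the most abundant transcript held 8.86% to 9.56% of the citalopram sum.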

How the data were processed

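Whole-embryo total RNA was sequenced in 5 citalopram 0.03 µg/L and 5 control libraries. The authors trimmed the reads (Trimmomatic), quantified transcripts of GRCz11 (Salmon) and ran DESeq2 for each concentration against control, as the study's methods and the submitters' processing notes state. How transcripts were chosen for listing is not stated there. The deposited group means of normalized counts, a signal that is never negative, were used. The deposited tables also hold the authors' overall mean, log2 fold changes, standard errors, test statistics and p-values, which were not used. No column of other samples was set aside (0).

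The test design was written for group means alone. Because the means carry 15 significant digits, the amount that 1 count in 1 library adds to a mean was found from the lowest means, and every set of whole counts that gives a mean was searched for. Within a single table, a mean was resolved only where exactly 1 set existed. Control counts, which enter all 4 tables, were identical for all 16946 to 17882 transcripts resolved in any 2 tables. Above 250 normalized counts, control counts were those that gave the control mean in every table, and citalopram counts were sought only as reads from 2 libraries, up to a mean of 10000 (the same search found 4 of 4 such controls with 0 false sets). The whole counts are Salmon estimates as rounded by the authors' pipeline. Resolving single means and limma were checked on simulated data. Combining tables was not part of this check. Of 7491 simulated means 7369 were resolved, with 0 wrong sets. Limma recovered 22 of 50 transcripts changed 2-fold, 34 of 50 at 4-fold, 41 of 50 at 8-fold and 46 of 50 at 16-fold. It also called 6 unchanged ones. The simulated spread was that of the controls, and transcripts at 0 in control were not simulated.

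Log2(normalized count + 1) was tested with limma 3.58.1 in R 4.3.3 (trend, Benjamini-Hochberg over 17978 transcripts). Single per-library values were compared with an exact permutation test in scipy 1.17.1. Other work used Python 3.11.15, numpy 2.4.6, pandas 2.3.3, numba 0.67.0 and matplotlib 3.10.9. Libraries left out did not change the size factors. A fold against 0 used a floor of 3 counts over 5 libraries. Floors cover counting error only.

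The transcripts named by ID were the 2 largest and 2 smallest ratios with at least 100 normalized counts in both groups. Others were described without ID after their values were seen. The members, lists and alternatives were chosen with earlier results of these data known. Leaving out a and d together, and the other limma settings, were added after seeing the data. The labels' treatment text names opioids, and the titles and the study name citalopram, which was used. The p-values measure the spread between the 5 pools per group.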

Additional observations from a re-analysis of the deposited data

Results flagged for a closer look

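Of 21 sets of 5 library values examined, 2 held a library far from the other 4. A chance rate of about 1 in 20 holds for independent, normally distributed values. These sets share libraries and include raw counts of transcripts picked for extreme ratios, so that rate does not apply to them. Control library f had 1673 resolved transcripts under 1/2 of the median of the other 9 libraries, and the next control had 1243. It also had the smallest size factor, and the counts past the fold without it are among those given above. ENSDART00000159067.2 was at 648 normalized counts in citalopram c and at 0 in the other 4 citalopram libraries. The pair of citalopram libraries a and d was not singled out by this measure, which looks for 1 library apart from 4.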

How the results depend on the processing

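No paired analysis was possible because the resolved libraries carry no replicate numbers. The whole-table counts past the fold (3258 higher, 1649 lower) changed by less than 1.5 times with a pseudocount of 1 or 5, a filter at 10 normalized counts, centring, scaling to equal sums or any 1 control left out. They were 1410 and 454 at 100 normalized counts or more, where fewer transcripts remain, and 1548 and 450 at an absolute log2 ratio above 1. The median log2 ratio was 0.0150 at 100 normalized counts or more, -0.0387 after scaling to equal sums, and 0.00715 to 0.0166 with 1 control left out. Both counts of transcripts at 0 in a group changed by less than 1.5 times with a limit of 0.6 in place of 0. A filter at 10 normalized counts in the other group could remove none, because the lowest means there were 13.4 and 13.3.

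Among resolved transcripts, leaving out 1 library gave 1703 to 2750 higher and 945 to 2206 lower past the fold, with a change of over 1.5 times only in the lower count without citalopram c. At 0 in every citalopram library were 47 to 83, and the increase without b, c, d or e follows from fewer libraries. Transcripts without overlap numbered 81 to 290 above and 102 to 309 below the controls, from 81 and 102 without a and 82 and 102 without d to 208 and 203 without b and 290 and 309 without c. Fewer libraries can only raise these counts, which were 64 and 83 with all 10 libraries. The same holds without a and d together. Why the rise differed between libraries was not tested. Calls by limma were 0 to 2 higher and 0 to 1 lower, and unadjusted limma counts 256 to 1211 higher and 269 to 1243 lower. Without a there were 256 and 269 and without d 258 and 286, against 1211 and 1243 without c and 928 and 968 without b. Without control i they were 425 and 278, and the lower count was 372 without f and 357 without j.

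Without a and d together there were 899 higher and 922 lower past the fold, 81 at 0 in every control and 223 at 0 in every citalopram library, 140 above and 187 below every control, and 3 higher and 1 lower by limma (181 and 287 unadjusted). At a mean of 50 normalized counts or more limma called 0 higher and 0 lower (373 and 343 unadjusted), with the transcript called over all levels below that mean, and with a pseudocount of 5 it called 1 and 0. Citalopram libraries above 250 normalized counts were not resolved except where reads came from 2 libraries, so no replicate check exists there on the treated side.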
